A study of Mus musculus with 11 samples.

Results

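The 10 immediate early genes Fos, Fosb, Junb, Jun, Egr1, Egr2, Egr3, Nr4a1, Arc and Npas4 were followed across neurons of 3 thalamic nuclei of newborn mice. They are 10 of the 54752 gene identifiers in the count tables, found by symbol, and all 10 were among the 15907 genes that passed the filter on low counts. They were proposed as a set of genes at low level in the ventral posteromedial nucleus (VPM), with earlier results of these libraries known, so their VPM values chose them and are given as a description with no test. The choice had no numerical threshold. The set did not behave as 1 group in the data. Fos, Fosb, Junb and Egr1 were lowest in VPM in every library, Jun and Nr4a1 were only slightly lower there, Arc and Npas4 stood apart in another nucleus, Egr2 had its highest mean in VPM, and Egr3 was too low to be placed. They are therefore called immediate early genes below, without reference to VPM.

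RNA was sequenced from neurons of the dorsolateral geniculate nucleus (dLG, the relay of vision, 4 libraries), VPM (the relay of touch from the face, 4 libraries) and the ventral medial geniculate nucleus (MGv, the relay of hearing, 3 libraries). All mice were of the ICR/CD-1 strain, at postnatal day 0, and carried 1 Gbx2CreER-IRES-EGFP allele and 1 R26lsl-tdTomato allele. In these animals a Cre recombinase that needs tamoxifen is made where the thalamic gene Gbx2 is active, and cells in which it acted in the embryo turn red, so the sorted cells are those that expressed Gbx2 at induction and not every neuron of a nucleus. Each library pooled the tissue of 4 brains, and the labels set the groups apart only by the nucleus dissected. No group was stimulated. Brains were taken out in ice-cold KREBS solution and sliced. The nuclei were then dissected and digested with papain in a medium with the glutamate receptor blockers kynurenic acid and APV. The part of these steps in the levels below was not tested.

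Immediate early genes are transcribed within minutes of a stimulus, without new protein synthesis, when calcium entry or growth factor signalling activates kinases that phosphorylate factors already bound at their promoters. CREB binds the cyclic AMP response element and the serum response factor binds the CArG box. Most of the genes encode transcription factors (the FOS and JUN proteins, which pair as AP-1, the zinc finger EGR proteins, the nuclear receptor NR4A1 and the neuron-specific NPAS4), while Arc encodes a protein of the synapse. In sensory systems they are used as marks of recent neuronal activity, and tissue dissociation is also known to raise several of them.

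The sequence before the start of each gene was taken from RefSeq (build GRCm38.p6), since the members are known for response elements there. Of the 10 genes 7 had an entry, and Egr1, Egr3 and Arc had none. The 200 bases before the start were searched on both strands for TGACG, the core of the cyclic AMP response element TGACGTCA. At least 1 TGACG lay in a window of 6 of the 7 genes (Fos, Fosb, Junb, Egr2, Nr4a1 and Npas4), against 15.7% of all 32851 windows of this length. Egr2 was counted by any of its 5 windows, whereas the share is per window. The windows shown are those of 3 of the genes lowest in VPM, of Npas4, which was highest in MGv, and of Egr2, which was highest in VPM. Capitals mark TGACG, written CGTCA where it lies on the other strand, and in Egr2 also a CArG box. The windows are chr12:85473690-85473889 (plus strand) for Fos, chr7:19310046-19310245 (minus strand) for Fosb, chr8:84978749-84978948 (minus strand) for Junb, chr19:4989972-4990171 (minus strand) for Npas4 and chr10:67537669-67537868 (plus strand) for Egr2. Each is printed 5′ to 3′ on the strand of the gene and ends at the base before the RefSeq start. That start can differ from the gene limits given below, which are from GENCODE. The windows of Npas4, Egr2 and Nr4a1 lie inside those limits.
Fos: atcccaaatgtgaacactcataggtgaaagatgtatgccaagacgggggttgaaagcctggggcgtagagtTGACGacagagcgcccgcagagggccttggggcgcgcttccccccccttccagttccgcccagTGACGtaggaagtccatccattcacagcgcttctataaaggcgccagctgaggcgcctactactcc
Fosb: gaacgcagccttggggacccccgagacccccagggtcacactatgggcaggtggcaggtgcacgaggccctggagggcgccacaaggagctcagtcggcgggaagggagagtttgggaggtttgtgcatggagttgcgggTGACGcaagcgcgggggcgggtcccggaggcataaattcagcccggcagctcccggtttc
Junb: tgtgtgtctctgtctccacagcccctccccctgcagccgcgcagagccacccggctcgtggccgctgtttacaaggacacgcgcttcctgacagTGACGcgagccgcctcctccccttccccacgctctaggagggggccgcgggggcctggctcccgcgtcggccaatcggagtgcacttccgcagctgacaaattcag
Npas4: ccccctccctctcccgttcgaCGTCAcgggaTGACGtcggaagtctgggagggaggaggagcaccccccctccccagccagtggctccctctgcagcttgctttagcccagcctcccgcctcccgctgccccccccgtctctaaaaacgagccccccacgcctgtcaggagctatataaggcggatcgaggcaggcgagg
Egr2: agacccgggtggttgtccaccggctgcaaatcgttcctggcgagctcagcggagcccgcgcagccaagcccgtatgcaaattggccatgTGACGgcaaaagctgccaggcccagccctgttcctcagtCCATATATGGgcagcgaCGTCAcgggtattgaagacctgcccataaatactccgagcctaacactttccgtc

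In Fos the core elements began 129 and 66 bases before the start, and TATAAA, found in 9.96% of all windows, began 33 bases before it. Fosb had 1 core element, 60 bases before its start, and Junb had 1, at 106 bases. Npas4 had 2, at 179 and 169 bases, and Nr4a1 had 2, at 69 and 40 bases. Egr2 has 5 windows in RefSeq. Windows 1 and 2 had no TGACG, and window 1 had no CArG box either. Windows 3, 4 and 5 overlap, and window 3 is shown. In the one shown, the core elements began 111 and 55 bases and the CArG box 72 bases before the start. Jun had no TGACG in its window. The full TGACGTCA, present in 1.47% of all windows, was in the window of 0 of the 7 genes, and a CArG box, present in 1.18%, only in Egr2. Genes with different patterns across the nuclei thus had the core element in their windows. A match describes these letters only and does not show binding, and elements farther from the start were outside the window.

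Some libraries stood apart. Total counts were 15.9 to 22.7 M in dLG, 18.9 to 23.6 M in VPM and 10.2 to 13.2 M in MGv. Levels are given as CPM, counts scaled to a common library total that TMM factors adjust, and 3 counts correspond to 0.129 to 0.292 CPM, which covers counting error only. Hspa8, a constitutive chaperone, was at 3.05 CPM in dLG replicate 2, 4.09 CPM in VPM replicate 3 and 5.56 CPM in MGv replicate 1, whereas the remaining 8 libraries had 159 to 581 CPM. Results were also computed without these 3. Pan-neuronal markers (6 genes) summed to 8420 to 11100 CPM. The 6 thalamic markers summed to 2940 to 3470 CPM in dLG, 1940 to 2590 CPM in VPM and 2630 to 2800 CPM in MGv, so every VPM library was below every other library. Against dLG, not every marker followed this sum. Tcf7l2 was at 382 to 696 CPM in dLG, 468 to 563 CPM in VPM and 1070 to 1290 CPM in MGv. Gbx2 was at 14.2 to 51.6 CPM in dLG, 27.3 to 45.7 CPM in VPM and 272 to 333 CPM in MGv. Of the markers of other cells, Gfap, Sox10, Cdh5, Col1a2 and Slc32a1 had at most 3 counts in every library, while other genes of the same lists were detected. The lists of 6 genes summed to 0.292 to 6.67 CPM for endothelial cells, 2.72 to 7.09 CPM for mural cells and fibroblasts and 0.382 to 5.19 CPM for GABAergic neurons. Those of microglia summed to 1.14 to 6.63 CPM in dLG, 2.48 to 16.8 CPM in VPM and 1.88 to 5.73 CPM in MGv. The 6 astrocyte markers summed to 5.58 to 31.3 CPM in dLG, 40.5 to 53.5 CPM in VPM and 64.2 to 115 CPM in MGv, and the 6 oligodendrocyte markers to 12.5 to 30.2, 32.7 to 43.4 and 74.9 to 85.9 CPM. Blood markers reached 514 CPM in 1 dLG library and at most 12 CPM in VPM and 0.351 CPM in MGv. The part of these differences in the results was not tested. In bulk samples, fewer cells expressing a gene and less RNA per cell cannot be told apart.

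Together the 10 genes made up less of the RNA in VPM. Their summed level was 374, 560, 398 and 446 CPM in dLG replicates 1 to 4, 277, 199, 262 and 222 CPM in VPM replicates 1 to 4 and 658, 639 and 496 CPM in MGv replicates 1 to 3. Every VPM library lay below every other library. This also held for the summed thalamic markers, though Tcf7l2 and Gbx2 overlapped between VPM and dLG, and their part was not tested. The mean summed level of the 10 genes was 444 ± 82.6 CPM over the 4 dLG libraries, 240 ± 35.9 CPM over the 4 VPM libraries and 598 ± 88.6 CPM over the 3 MGv libraries (each ± SD). Fos and Jun dominated these sums, with 71.9% to 86.1% of the summed CPM in each library. Without Jun the sum was 292 ± 74.8 CPM in dLG, 116 ± 18.7 CPM in VPM and 431 ± 59.5 CPM in MGv (SD). Over the 10 genes the median log2 fold change of VPM against the mean of the other nuclei was -1.28, beside 0.01 over all genes tested, and it was -0.80 without the 3 libraries with low Hspa8.

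**Figure D1:**
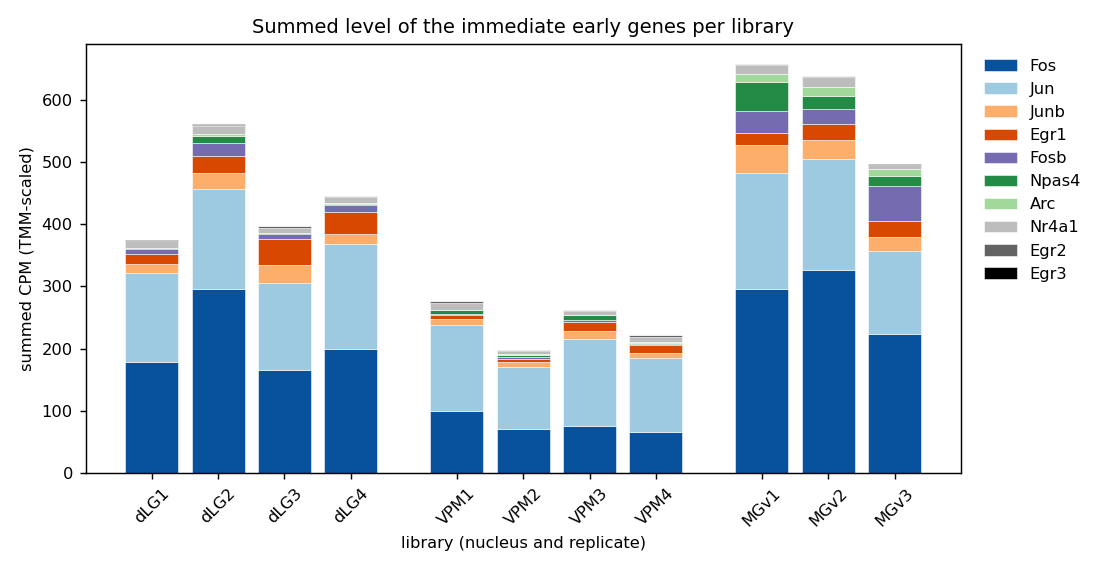
Summed TMM-scaled CPM of the 10 immediate early genes in each library, stacked by gene, with the libraries ordered by nucleus and replicate. The 4 VPM bars end between 199 and 277 CPM, below the lowest dLG bar (374 CPM) and the lowest MGv bar (496 CPM), and the Jun segment differs less between the nuclei than the Fos segment.

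Fos, whose protein forms AP-1 with a JUN partner (chr12:85473890-85477273), carried most of this difference. It was at 178, 296, 165 and 200 CPM in dLG, 100, 70.5, 75.0 and 65.3 CPM in VPM and 296, 326 and 223 CPM in MGv. Every VPM library lay below every library of the other nuclei, and the dLG and MGv ranges overlapped. The log2 fold change was -1.43 ± 0.20 (SE) for VPM minus dLG and -1.86 ± 0.21 (SE) for VPM minus MGv. The same lack of overlap was seen for 4 of the 10 genes (Fos, Fosb, Junb and Egr1), beside 2.88% of all genes tested, a count that the choice of the genes had used.

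Fosb, a second FOS family member (chr7:19302696-19310051), had the largest VPM differences of the 10 genes against both dLG and MGv. Its level was 7.43, 20.6, 8.77 and 12 CPM in dLG, 1.48, 2.47, 4.16 and 2.14 CPM in VPM and 34.6, 24.2 and 56.6 CPM in MGv. None of the 3 groups overlapped with another, so Fosb was ordered VPM, dLG, MGv. The mean in MGv was 15.0 times that in VPM, and the log2 fold change of VPM was -2.27 ± 0.39 (SE) against dLG and -3.92 ± 0.42 (SE) against MGv.

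Among the JUN genes, Junb and Jun differed in pattern. Junb, which pairs with FOS proteins (chr8:84974484-84978718), was at 14.9, 25.3, 29.3 and 15.9 CPM in dLG, 9.78, 7.10, 13.4 and 8.37 CPM in VPM and 46.1, 29.7 and 22.8 CPM in MGv. Its VPM libraries were again below all others, by a smaller margin, with log2 fold changes of -1.15 ± 0.28 (SE) against dLG and -1.77 ± 0.30 (SE) against MGv. Jun (chr4:95049034-95052222) was at 143, 161, 140 and 169 CPM in dLG, 138, 100, 140 and 119 CPM in VPM and 186, 180 and 134 CPM in MGv. The Jun ranges of VPM and MGv overlapped and the highest VPM library was level with the lowest dLG library. Its log2 fold changes of -0.30 ± 0.15 (SE) and -0.42 ± 0.16 (SE) were the smallest in size among the 4 AP-1 genes. Exons of Junb overlap those of Prdx2 on the opposite strand over 7.52% of their length, and exons of Jun overlap an antisense gene over 7.28%. Whether strand was used in counting is not given in the sources used here, so part of these counts is uncertain. The same limit applies to other genes named in the text. Opposite-strand overlaps were larger in Gbx2 (43.45%), Ccn2 (23.24%), Dusp5 (22.12%), Syt4 (14.54%) and Bdnf (14.41%).

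The ratio of Fos to Jun differed with the nucleus. The CPM of Fos divided by the CPM of Jun, in which gene length cancels between nuclei, was 1.25, 1.84, 1.18 and 1.18 in dLG, 0.726, 0.704, 0.536 and 0.550 in VPM and 1.59, 1.81 and 1.67 in MGv. The VPM libraries were the only ones under 1, so the AP-1 genes were not lower there in equal measure.

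Egr1, a zinc finger factor also known as Zif268, was low in VPM and high in dLG. It was at 17.0, 27.8, 42.1 and 34.7 CPM in dLG, 5.70, 6.02, 13.6 and 12.3 CPM in VPM and 19.7, 25.8 and 25.4 CPM in MGv. The VPM libraries lay below all others, and the MGv libraries lay within the dLG range. Egr1 was the only one of the 4 genes whose mean was higher in dLG than in MGv, with log2 fold changes of VPM of -1.70 ± 0.32 (SE) against dLG and -1.33 ± 0.34 (SE) against MGv. Without the 3 libraries with low Hspa8, the log2 fold changes of Fos, Fosb, Junb and Egr1 were -1.21, -2.21, -1.25 and -1.97 against dLG and -1.82, -4.32, -1.66 and -1.69 against MGv.

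The other EGR genes did not have this pattern. Egr2, known in myelinating glia and the hindbrain as well as in stimulated neurons (chr10:67535475-67542188), was at 0.913, 1.07, 3.32 and 1.43 CPM in dLG, 3.2, 1.6, 1.74 and 3.42 CPM in VPM and 0.225, 0.965 and 0.194 CPM in MGv. The VPM libraries were all above the MGv libraries and overlapped with dLG, with log2 fold changes of 2.42 ± 0.68 (SE) against MGv and 0.56 ± 0.53 (SE) against dLG. These values rest on 2 to 72 counts per library. Egr3 (chr14:70077203-70082614) had 0 to 17 counts per library, and 0 counts in dLG replicate 3 and VPM replicate 3, so no order of the nuclei was detectable at this depth.

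Nr4a1, an orphan nuclear receptor (chr15:101254269-101274795), was only slightly lower in VPM. It was at 10.4, 13.1, 7.79 and 9.88 CPM in dLG, 11.0, 4.72, 5.77 and 8.18 CPM in VPM and 15.4, 16.1 and 7.19 CPM in MGv. The ranges of all 3 nuclei overlapped. The log2 fold change of VPM was -0.47 ± 0.31 (SE) against dLG and -0.80 ± 0.33 (SE) against MGv.

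Arc and Npas4, the genes of the set most restricted to neurons, were high in MGv rather than low in VPM. Arc, whose protein acts in the removal of AMPA receptors at synapses (chr15:74669083-74672570), was at 0.852, 3.87, 0.599 and 0.716 CPM in dLG, 0.788, 2.03, 0.930 and 1.14 CPM in VPM and 12.8, 13.8 and 11.2 CPM in MGv. The MGv libraries lay far above all others, while the VPM range was inside the dLG range. Npas4, a factor induced by calcium entry (chr19:4984355-4990316), was at 1.4, 11.5, 0.872 and 1.91 CPM in dLG, 6.44, 3.68, 7.69 and 2 CPM in VPM and 46.6, 21.6 and 15.6 CPM in MGv. Its MGv libraries were again above all others, and 3 of the 4 dLG libraries were below every VPM library. Every MGv library was above every other library for 3 of the 10 genes (Fosb, Arc and Npas4), beside 5.98% of all genes tested. This count also uses the VPM values, on which the genes were chosen.

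For these 2 genes the order of VPM and dLG depended on dLG replicate 2. The log2 fold change of VPM minus dLG was -0.32 ± 0.54 (SE) for Arc and 0.31 ± 0.68 (SE) for Npas4, and without dLG replicate 2 it was 0.78 for Arc and 1.82 for Npas4. In that library 6 of the 10 genes had their highest dLG value. Against MGv, the log2 fold change of VPM was -3.35 ± 0.57 (SE) for Arc and -2.50 ± 0.72 (SE) for Npas4.

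**Figure D2:**
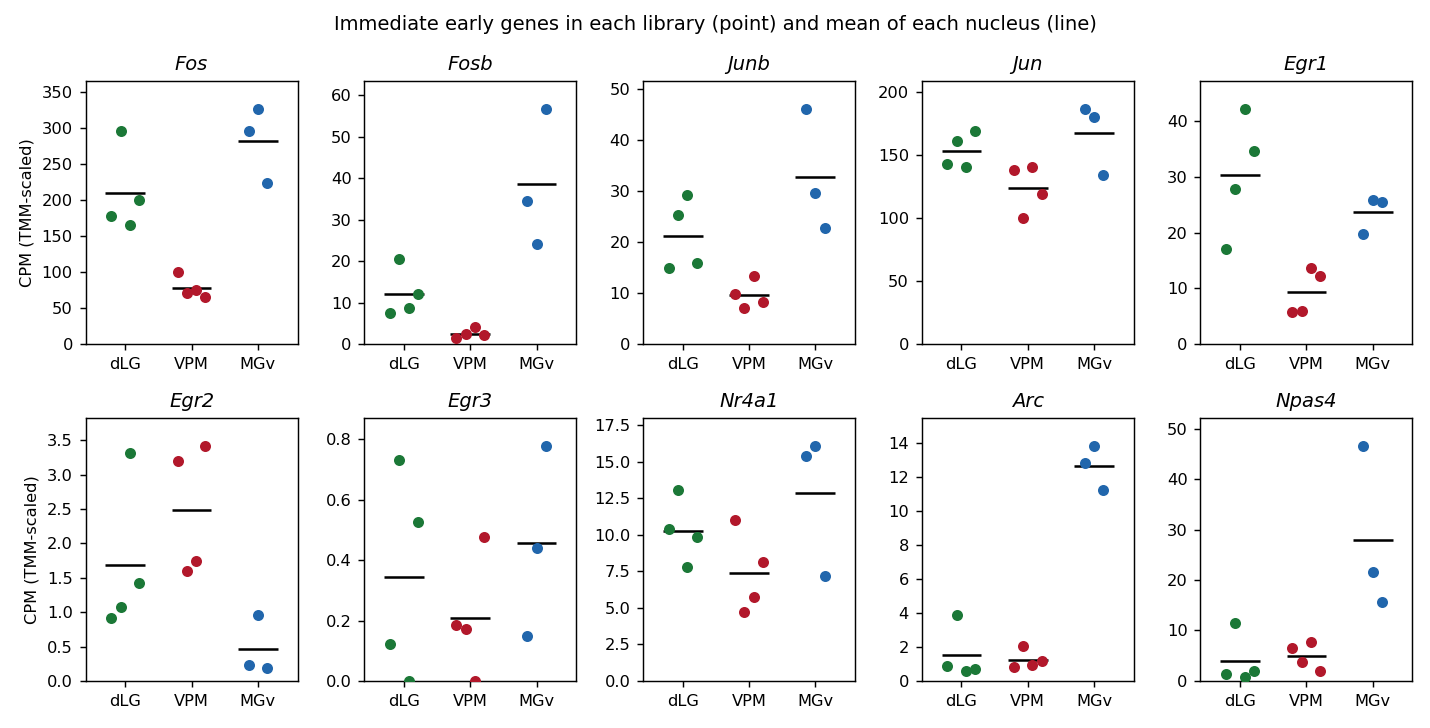
CPM (TMM-scaled) of each immediate early gene, 1 panel a gene, with a point for each library and a line for the mean of each nucleus, on linear axes from 0. The VPM points of Fos, Fosb, Junb and Egr1 lie below all others, the MGv points of Arc and Npas4 lie above all others, and for Egr2 the VPM mean (2.49 CPM) is the highest.

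The comparison of MGv with dLG was tested, with edgeR's quasi-likelihood test and p-values adjusted over all 15907 genes. The genes were not chosen on this contrast, but it is not independent of the choice, which set VPM against both levels. Log2 fold changes of VPM for Arc and Npas4 were -3.35 and -2.50 against MGv but -0.32 and 0.31 against dLG. A high MGv level could thus have brought these genes into the set, and the shares below carry that limit. Of the 10 genes 3 were higher in MGv at an adjusted p under 0.1, beside 7.49% of all genes tested, and 1 was lower, beside 8.61%. Arc rose most, from 1.51 ± 1.58 CPM over the 4 dLG libraries to 12.6 ± 1.32 CPM over the 3 MGv libraries (± SD). Its log2 fold change was 3.03 ± 0.56 (SE) with an adjusted p of 0.00256. Npas4 rose by 2.81 ± 0.73 (SE) with an adjusted p of 0.0208, which was 0.104 without MGv replicate 1. Fosb rose by 1.65 ± 0.38 (SE) with an adjusted p of 0.0114. The calls of Arc and Fosb held under each of the 20 alternatives run.

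Egr2 was lower in MGv than in dLG, with a log2 fold change of -1.85 ± 0.67 (SE) and an adjusted p of 0.0976. This call was the weakest of the 4 and was lost under 10 of the 20 alternatives, with an adjusted p of 0.0336 to 0.278 over all of them. Fos differed by 0.42 ± 0.21 (SE) with an adjusted p of 0.241, and without dLG replicate 2, its highest dLG library, by 0.64 with an adjusted p of 0.0381. Junb (0.62 ± 0.30 SE, adjusted p 0.222), Egr1 (-0.37 ± 0.34 SE, adjusted p 0.573), Nr4a1 (0.33 ± 0.33 SE, adjusted p 0.601), Jun (0.12 ± 0.16 SE, adjusted p 0.706) and Egr3 (0.33 ± 1.07 SE, adjusted p 0.898) did not pass. The median log2 fold change of the 10 genes was 0.38, beside -0.02 over all genes tested. Arc and Npas4 were thus the genes whose dLG and MGv levels lay farthest apart. The summed astrocyte and oligodendrocyte markers were also higher in every MGv library than in every dLG library, and their part was not tested.

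**Figure D3:**
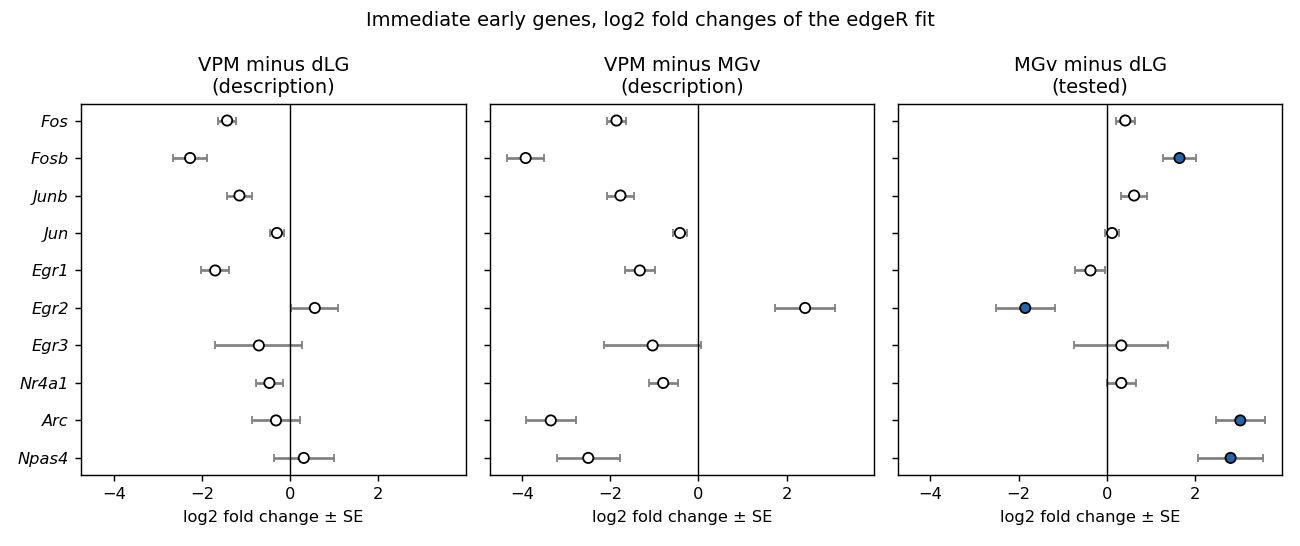
Log2 fold change ± SE of each immediate early gene for VPM minus dLG, VPM minus MGv and MGv minus dLG. The VPM contrasts chose the genes and carry no test. Filled points in the MGv minus dLG panel had an adjusted p under 0.1 (Fosb, Arc and Npas4 above 0, Egr2 below 0).

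Between genes, levels were compared as CPM per kilobase of exon. In dLG, Fos was at 89.2 ± 25.2 and Jun at 48.0 ± 4.39 CPM per kb (SD, n = 4), followed by Junb at 9.27 ± 3.08, Egr1 at 6.78 ± 2.37, Nr4a1 at 2.93 ± 0.618 and Fosb at 1.95 ± 0.947. Fos thus had the highest level there. In VPM, Jun at 39.0 ± 5.85 and Fos at 33.1 ± 6.57 CPM per kb (SD, n = 4) were within their spread, and Junb at 4.2 ± 1.18, Nr4a1 at 2.11 ± 0.794 and Egr1 at 2.09 ± 0.918 followed, the last 2 also within their spread. Fos was no longer above Jun there. In MGv, Fos reached 120 ± 22.5 CPM per kb and Jun 52.2 ± 9 (SD, n = 3). Fosb at 6.16 ± 2.64, Npas4 at 6.75 ± 3.98, Egr1 at 5.27 ± 0.761, Arc at 4.12 ± 0.431 and Nr4a1 at 3.68 ± 1.42 CPM per kb came next after Junb at 14.3 ± 5.20. Arc and Npas4 thus changed from about the lowest of the set in dLG, at 0.493 ± 0.515 and 0.946 ± 1.22 CPM per kb, to levels like those of Egr1 in MGv.

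The median biological coefficient of variation of the 10 genes between libraries of a nucleus was 33.7%, beside 24.9% over all genes tested. Jun, at 16.0%, and Fos, at 20.6%, were under that median and varied least, while Arc (49.8%), Egr2 (50.0%), Npas4 (64.5%) and Egr3 (82.9%) varied most. On the log2 scale, the mean of the 10 centred profiles was between -0.79 and -0.55 in the 4 VPM libraries, between 0.65 and 0.97 in the 3 MGv libraries and between -0.44 and 0.68 in dLG, where replicate 2 alone was above 0.

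Genes with the profile most like this mean were looked for among 10052 other genes whose spread was at least 0.5 times its own over the 11 libraries. The 5 closest by root mean square difference on the log2 scale were Cemip2 (0.23), Adamtsl1 (0.24), Akap17b (0.25), Stat4 (0.25) and Adra2a (0.25), beside a median of 0.91. Cemip2, which encodes a membrane protein known to degrade hyaluronan, averaged 25.6 ± 4.74 CPM over the 4 dLG, 14.6 ± 2.48 CPM over the 4 VPM and 43.1 ± 7.83 CPM over the 3 MGv libraries (± SD). Stat4, a signal transducer of cytokine receptors, averaged 2.3, 1.4 and 3.79 CPM in the same order of nuclei. Adra2a, an adrenergic receptor, averaged 0.476, 0.335 and 0.893 CPM, close to the level of 3 counts. The profile matched is a mean over genes that differed in pattern, and the 5 are the closest of 10052.

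Other genes of the early response were taken from lists of 22 transcription factors and 20 signalling genes, of which 41 of 42 were tested. They did not share a direction in VPM. Of the 41 genes 4 were lower in VPM than in both other nuclei (9.76%, beside 1.97% of all genes tested) and 3 were higher (7.32%, beside 2.41%), with adjusted p under 0.1 in both contrasts of edgeR's quasi-likelihood test. Their median log2 fold change was 0.07 for VPM minus dLG and -0.16 for VPM minus MGv, beside 0.00 and 0.02 over all genes tested. Both contrasts share the VPM libraries, which are also those the 10 genes were chosen on. The lists here and below were drawn up with earlier results of these libraries known.

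Mafk, a small MAF factor that pairs with other basic leucine zipper proteins, was, like Fos, lowest in VPM and was called under each of the 20 alternatives. It was at 16.1, 28.2, 29.1 and 22.1 CPM in dLG, 5.19, 6.19, 11.5 and 6.75 CPM in VPM and 29.1, 27.1 and 15.4 CPM in MGv, with every VPM library below all others. Its log2 fold change was -1.69 ± 0.29 (SE) against dLG, with an adjusted p of 0.00236, and -1.69 ± 0.31 (SE) against MGv, with an adjusted p of 0.00242.

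The other 3 lower genes were signalling genes with weaker calls. Rgs2, which limits G protein signalling, was lower, with log2 fold changes of -0.44 ± 0.14 (SE, adjusted p 0.0770) against dLG and -1.27 ± 0.15 (SE, adjusted p 8.64e-05) against MGv. Errfi1, a feedback inhibitor of the EGF receptor, had log2 fold changes of -0.68 ± 0.16 (SE, adjusted p 0.0173) and -0.49 ± 0.17 (SE, adjusted p 0.0763). Dusp1, a phosphatase of MAP kinases, had ones of -0.70 ± 0.24 (SE, adjusted p 0.0991) and -1.14 ± 0.25 (SE, adjusted p 0.00912). Rgs2 and Errfi1 were called under 12 of the 20 alternatives and Dusp1 under 9. Without VPM replicate 1, VPM replicate 4, MGv replicate 1 or MGv replicate 2, each in turn, Mafk alone was called. The count was 2 without dLG replicate 2, dLG replicate 3 or VPM replicate 2.

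Higher in VPM were Sgk1, Dusp6 and Myc. Sgk1, a kinase also induced by glucocorticoids, was at 224 to 321 CPM in dLG, 461 to 610 CPM in VPM and 43.8 to 70.8 CPM in MGv. It was higher by 0.98 ± 0.16 (SE, adjusted p 0.00185) against dLG and 3.19 ± 0.20 (SE, adjusted p 4.73e-07) against MGv. Dusp6, a phosphatase of ERK whose own transcription follows ERK signalling, was at 36.0 to 45.3, 95.1 to 126 and 24.9 to 37.7 CPM in dLG, VPM and MGv. Its log2 fold change was 1.46 ± 0.16 (SE, adjusted p 5.58e-05) and 1.70 ± 0.18 (SE, adjusted p 3.17e-05). Both were called under all 20 alternatives. Myc, a growth-related factor, was higher by 0.77 ± 0.25 (SE, adjusted p 0.0805) and 2.23 ± 0.29 (SE, adjusted p 2.0e-04), and was called under 12 of them.

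Effector genes induced later, which act at synapses or as secreted peptides, were called higher in VPM more often than lower. This list was also drawn up with earlier results of these libraries known, so its shares are a description. Of 13 tested genes 4 were higher than in both other nuclei (30.8%, beside 2.41% of all genes tested) and 1 was lower (7.69%, beside 1.97%), and the median log2 fold change was 0.38 against dLG and 0.43 against MGv. Bdnf, a neurotrophin known as a target of CREB and NPAS4, was at 10, 14.8, 14.2 and 12.8 CPM in dLG, 53.3, 50.4, 35.3 and 49.1 CPM in VPM and 13.1, 18.1 and 18.3 CPM in MGv. Its log2 fold change was 1.86 ± 0.19 (SE, adjusted p 3.85e-05) against dLG and 1.51 ± 0.21 (SE, adjusted p 2.83e-04) against MGv. Every VPM library was above every other, in contrast to Fos, Fosb, Junb and Egr1 in the same libraries.

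Inhba, which encodes a subunit of activin, was at 17.3 to 52.1 CPM in VPM and at 0.258 to 2.68 CPM in dLG and 0.176 to 1.75 CPM in MGv, with log2 fold changes of 4.52 ± 0.61 (SE, adjusted p 3.99e-04) and 5.57 ± 0.78 (SE, adjusted p 3.29e-04). Scg2, a precursor of secretory granule peptides, was higher by 1.29 ± 0.18 (SE, adjusted p 4.09e-04) and 0.54 ± 0.19 (SE, adjusted p 0.0802). Syt4, a vesicle protein, was higher by 0.45 ± 0.14 (SE, adjusted p 0.0794) and 0.47 ± 0.16 (SE, adjusted p 0.0668). Scg2 and Syt4 were called under 13 and 11 of the 20 alternatives, and Bdnf and Inhba under all 20. Vgf, a neuropeptide precursor, was the lower gene, with log2 fold changes of -0.88 ± 0.26 (SE, adjusted p 0.0599) and -1.16 ± 0.28 (SE, adjusted p 0.0150), and its call was lost when dLG replicate 1, dLG replicate 4 or VPM replicate 2 was left out.

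**Figure D4:**
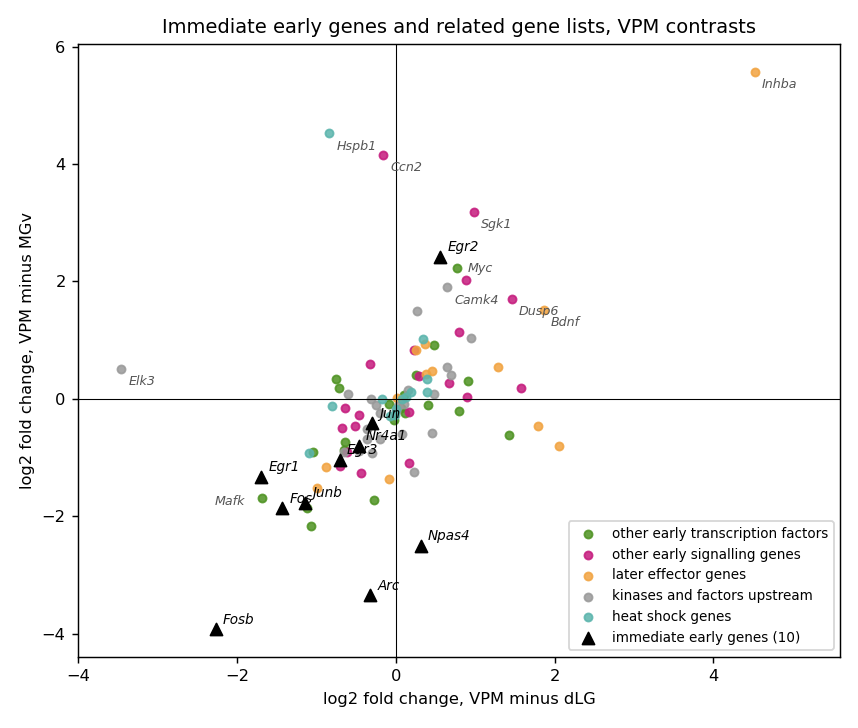
Log2 fold change of VPM minus dLG (horizontal) and of VPM minus MGv (vertical) for the 10 immediate early genes (triangles) and the tested genes of 5 related lists (points). Both axes share the VPM libraries. Fosb (-2.27 and -3.92) lies at the lower left, and Inhba (4.52 and 5.57), Sgk1 (0.98 and 3.19), Bdnf (1.86 and 1.51) and Egr2 (0.56 and 2.42) at the upper right.

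Kinases and factors that act before the immediate early genes had calls in both directions. Of 24 tested, 3 were higher and 3 lower in VPM than in dLG, beside 913 and 791 of all 15907 genes tested. Against MGv 3 were higher and 7 lower, beside 1654 and 1362 of all genes tested. Of 24 tested genes 1 was lower in VPM than in both other nuclei (4.17%, beside 1.97% of all genes tested) and 2 were higher (8.33%, beside 2.41%). Arnt2, the partner with which NPAS4 binds DNA, was lower, with log2 fold changes of -0.65 ± 0.19 (SE, adjusted p 0.0545) against dLG and -0.90 ± 0.20 (SE, adjusted p 0.0105) against MGv. Camk4, a kinase that phosphorylates CREB, was higher by 0.65 ± 0.16 (SE, adjusted p 0.0272) and 1.90 ± 0.19 (SE, adjusted p 2.20e-05), and was called under all 20 alternatives. Mef2a, an activity-regulated factor, was higher by 0.65 ± 0.16 (SE, adjusted p 0.0209) and 0.55 ± 0.17 (SE, adjusted p 0.0469). Mef2a and Arnt2 were each called under 14 of the 20 alternatives.

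Heat shock genes are another group that dissociation can raise. Of 13 tested, 0 differed in VPM from both other nuclei in the same direction with edgeR, DESeq2 or limma voom. The edgeR shares over all genes tested were 1.97% lower and 2.41% higher, so 0 of 13 is near them. At an unadjusted p under 0.05 in both edgeR contrasts the count was also 0. Their median log2 fold change was 0.00 in both VPM contrasts. Hspb1 alone was called in a single VPM contrast, higher than in MGv by 4.52 ± 0.59 (SE, adjusted p 2.04e-04).

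Between MGv and dLG, 5 of the 41 other early-response genes were higher in MGv, beside 7.49% of all genes tested, and 4 were lower, beside 8.61%, with a median log2 fold change of 0.03. Bhlhe40, a basic helix-loop-helix repressor, rose by 2.05 ± 0.50 (SE, adjusted p 0.0150) and Klf6, a zinc finger factor, by 0.51 ± 0.17 (SE, adjusted p 0.0665). Gadd45b, which is induced by stress and by neuronal activity, rose by 1.39 ± 0.32 (SE, adjusted p 0.0118) and Dusp5, a nuclear phosphatase of ERK, by 1.27 ± 0.42 (SE, adjusted p 0.0688). The calls of Klf6 and Dusp5 were each lost under 5 of the 20 alternatives. Sgk1 fell by 2.21 ± 0.19 (SE, adjusted p 6.57e-06), Myc by 1.46 ± 0.29 (SE, adjusted p 0.00374) and Ccn2, a secreted matrix protein, by 4.33 ± 0.81 (SE, adjusted p 0.00295). Ccn2 was at 0 counts in MGv replicates 2 and 3, so its fitted fold change is no bound.

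Among later effectors, 4 of 13 were higher in MGv than in dLG, beside 7.49% of all genes tested, and 1 was lower, beside 8.61%. Nptx2, a pentraxin that gathers AMPA receptors, rose by 2.86 ± 0.49 (SE, adjusted p 0.00163), and Rasgrp1, an activator of RAS, by 2.25 ± 0.43 (SE, adjusted p 0.00321). The gene that fell was Rheb, an activator of mTOR, by 0.60 ± 0.18 (SE, adjusted p 0.0467). Of the 24 kinases and factors 3 were higher and 4 lower, beside the same shares of 7.49% and 8.61%. Mrtfb, a coactivator of the serum response factor, rose by 1.49 ± 0.27 (SE, adjusted p 0.00233) and Camk2b by 0.68 ± 0.15 (SE, adjusted p 0.00725), while Elk3, another partner of that factor, fell by 3.97 ± 0.43 (SE, adjusted p 4.18e-05) and Camk4 by 1.25 ± 0.18 (SE, adjusted p 4.87e-04). The 1 heat shock gene that changed was Hspb1, which fell by 5.36 ± 0.60 (SE, adjusted p 5.15e-05). In MGv Hspb1 had 1 to 6 counts per library and Elk3 had 4 to 7, so the sizes of both falls are uncertain. Nptx2 and Gadd45b were also higher in VPM than in dLG, by 2.05 ± 0.47 (SE, adjusted p 0.0154) and 1.57 ± 0.30 (SE, adjusted p 0.00586). Their log2 fold changes of VPM minus MGv, -0.81 ± 0.46 (SE, adjusted p 0.278) and 0.18 ± 0.32 (SE, adjusted p 0.768), did not pass. Bdnf, at 13.0 CPM in dLG and 16.5 CPM in MGv on average, did not pass between these nuclei (0.34 ± 0.20 SE, adjusted p 0.335).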

How the data were processed

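Neurons were sorted by tdTomato fluorescence from dLG (4 libraries), VPM (4) and MGv (3), each of 4 pooled brains. The authors deposited raw read counts per gene, which the labels and methods say were made from single reads of 50 bases by STAR 2.7.0d (build mm10) and featureCounts (Subread 1.6.4). They were not normalized. Groups and replicate numbers came from the sample titles, and symbols, positions and exon lengths from GENCODE M21, which held 54723 of the 54752 identifiers. The members and lists were chosen with earlier results of these data known.

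All 11 libraries entered 1 fit by edgeR 4.0.16 (quasi-likelihood test, R 4.3.3, filterByExpr, TMM), which left 15907 of 33170 genes with any count. P-values were two-sided, with Benjamini-Hochberg adjustment over these genes and a threshold of 0.1, the study's. They measure the spread between these pooled libraries, since the labels do not say that the pools came from separate litters. The SE of a log2 fold change is its size over the root of its F statistic. CPM were scaled by TMM, with a prior count of 2 on the log2 scale. No duplicated library was found. The model was tested on simulated data. Named were all members, the genes of each related list called in both VPM contrasts in the same direction (at most 5 per direction) or between dLG and MGv (at most 2 per direction, by size), and the 5 genes with the closest profile. Bdnf is named in the last comparison, and Hspa8 and the family markers beside the results, after their values were seen. As the 20 alternatives served limma 3.58.1 (voom), DESeq2 1.42.0, its size factors, total counts, no filter, a replicate block, thinned counts, the 3 libraries with low Hspa8 as a covariate or left out, and each library left out. An adjusted p under 0.05 was also tried for counts.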

Additional observations from a re-analysis of the deposited data

Results flagged for a closer look

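In dLG replicate 2, Arc was at 3.87 CPM, against 0.599 to 0.852 CPM in the other 3 dLG libraries. Npas4 was at 11.5 CPM in the same library, against 0.872 to 1.91 CPM, and Bhlhe40 at 12.3 CPM, against 2.72 to 4.2 CPM. Without it, the dLG mean was 0.722 ± 0.127 CPM for Arc and 1.39 ± 0.519 CPM for Npas4 (SD, n = 3). This library is also 1 of the 3 with low Hspa8, and Tcf7l2, a marker of thalamic neurons, was at 696 CPM in it and at 382 to 406 CPM in the other dLG libraries. The astrocyte gene Slc1a3 was at 17.9 CPM in it, against 1.1 to 4.63 CPM in the other dLG libraries and 45.5 to 90.3 CPM in MGv, and Gbx2 at 51.6 CPM, against 14.2 to 29.4 CPM and 272 to 333 CPM. The part of these differences in the values of Arc and Npas4 was not tested. In VPM replicate 3, Dusp1 was at 110 CPM, against 67.3 to 68.4 CPM in the other VPM libraries, and Arnt2 at 53.5 CPM, against 41.0 to 41.7 CPM. These 5 values were each far from the other libraries of their nucleus by Dixon's test, out of 76 sets of 4 libraries examined, and chance alone marks about 1 in 20 such sets.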

How the results depend on the processing

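The count of 4 other early-response genes lower in VPM than in both other nuclei was 2 with the replicate block, 1 at an adjusted p under 0.05 and between 1 and 5 with each library left out, and between 3 and 5 under the other alternatives. The count of 3 genes higher in VPM was 2 or 3 throughout. The 4 members that differed between dLG and MGv were 3 or 4 under the alternatives other than leaving out 1 library, and between 2 and 5 with each library left out (2 without MGv replicate 1). The median log2 fold change of the members, VPM against the mean of dLG and MGv, was -1.28, -1.47 with thinned counts, where Egr3 did not pass the filter and 9 members entered, -0.80 without the 3 libraries with low Hspa8 (the cause was not tested) and between -1.51 and -1.16 with each library left out. Of all recomputed values 2154 kept their direction and side of the threshold, 101 lost a call, 16 gained one, 23 moved further than the replicate spread or 1.5 times, and 0 called values changed sign. Libraries with the same replicate number did not all deviate together (r from -0.20 to 0.48 between their deviations, the highest for replicate 4 of dLG and VPM), so the numbers were not taken as pairs. With the replicate block 3 members differed between dLG and MGv, and Egr2 had an adjusted p of 0.224. Depth limits Egr3 and Egr2 most, at 0 to 17 and 2 to 72 counts per library.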
